A study of Mus musculus with 24 samples.

Results

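The genes described are those of the mouse H2 complex (all annotated symbols that begin with H2-) together with B2m, Cd74, Ciita, Tap1, Tap2, Tapbp, Canx, Calr and Pdia3, which serve antigen presentation. On the array they were represented by 62 of 12422 probe sets, taken by gene symbol from the platform annotation with no filter on expression. Of these, 34 probe sets read class I heavy chains, 1 read the class I light chain, 10 read class I peptide loading genes, 15 read class II genes and 2 read H2-Ke6, a steroid dehydrogenase gene of the H2 region that belongs to neither class. The annotation gave 51 of them 1 gene symbol and 11 several symbols, and 49 symbols occurred in all.

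RNA was measured in 11 cell lines from lung tumours of mice and in a control described as alveolar epithelial type II cells, the surfactant-making cells of the lung lining. The lines (A2B1, A2C12, B3, betaD10, betaD5, cRAF_cMYC, gammaA3, gammaA7, gammaB8, gammaD1 and gammaD12) carry c-myc and c-raf transgenes, came from tumours of 8-month-old mice and were kept in serum-containing medium for up to 50 passages. The control cells came from healthy mice without the transgenes. Of the 24 arrays, 22 were of the lines (3 arrays for each of 5 lines, 2 for A2B1 and 1 for each of 5 lines) and 2 were of the control. Control 1 is titled AT and control 2 AT2, and their type II and macrophage marker signals, given below, differed. The sources used here give neither the age of the control mice nor the mouse strain (and so its H2 haplotype), the promoters of the transgenes or whether a line is a clone. Transgenes, tumour origin and long culture all separate the lines from the control and cannot be told apart in this design. Nothing in the labels tells if repeat arrays are separate cultures or the control arrays separate mice. The p-values of all lines against the control reflect the spread between the 11 line means and between the 2 control arrays. Those among lines, of single lines and of unnumbered arrays reflect only the spread between arrays of a group. The spread between repeat arrays, and that between the control arrays, may be technical.

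Arrays of 2 lines went against their line labels. Over all probe sets, array 1 of cRAF_cMYC was more like array 1 of gammaA7 (Pearson r of log2 values over probe sets, 0.990) than array 2 of its own line (0.966). Array 2 of cRAF_cMYC was likewise more like array 2 of gammaA7 (0.989), while arrays 1 and 2 of gammaA7 gave 0.965. The cause was not tested, the labels were kept, and results on single lines are given with and without these lines where they rest on them. The unnumbered A2B1 array was more like the unnumbered B3 array (0.985) than the numbered A2B1 array (0.952). Among the 17 arrays of lines with several arrays, 9 were most like an array of their own line and 8 most like one of another line.

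Class I molecules pair a heavy chain, encoded in the H2-K, H2-D, H2-Q, H2-T and H2-M regions, with the light chain beta-2-microglobulin. Nearly all nucleated cells carry them, and they display peptides from inside the cell to CD8 T cells after the TAP transporter has brought those peptides into the endoplasmic reticulum and a loading complex has placed them in the groove. Class II molecules pair an alpha with a beta chain, are guided by the invariant chain Cd74 and loaded with the help of H2-DM, and display peptides taken up from outside to CD4 T cells. They are made by B cells, dendritic cells and macrophages and, in the lung, also by type II cells, and Ciita is the transcriptional master regulator of the class II genes.

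Sequences upstream of the genes are shown because they place the letters of the known class I and class II promoter elements beside the genes whose signals did and did not differ. Each is a RefSeq window (GRCm38.p6) of 250 bases before to 50 bases after a start. For H2-K1, which has 2 such windows, the start of the one shown (34000347) lies 272 bases inside the gene as annotated (chromosome 17, 33996012 to 34000619, minus strand), so it is not the outermost start. The H2-K1 window is chr17:34000298-34000597 (minus strand) and that of H2-D1 is chr17:35262844-35263143 (plus strand), the genes of the main class I heavy chains. The H2-T22 window is chr17:36042693-36042992 (minus strand), that of B2m is chr2:122147437-122147736 (plus strand) and that of the class II alpha chain gene H2-Aa is chr17:34287774-34288073 (minus strand). Capitals mark, on either strand, the palindrome-like kappa B element of class I promoters, the core of the interferon response element (a pair of GAAA runs with a 2-base gap), TGACG (the core of the X2 box) and CCAAT (the core of the Y box). A shorter kappa B form was also searched and was in no window of the members.
H2-K1: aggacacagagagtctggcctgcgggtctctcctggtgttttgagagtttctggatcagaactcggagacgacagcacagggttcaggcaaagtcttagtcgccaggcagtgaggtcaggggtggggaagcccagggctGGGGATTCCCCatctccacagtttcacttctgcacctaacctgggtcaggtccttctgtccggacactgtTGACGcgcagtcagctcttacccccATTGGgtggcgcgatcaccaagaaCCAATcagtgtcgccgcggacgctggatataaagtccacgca
H2-D1: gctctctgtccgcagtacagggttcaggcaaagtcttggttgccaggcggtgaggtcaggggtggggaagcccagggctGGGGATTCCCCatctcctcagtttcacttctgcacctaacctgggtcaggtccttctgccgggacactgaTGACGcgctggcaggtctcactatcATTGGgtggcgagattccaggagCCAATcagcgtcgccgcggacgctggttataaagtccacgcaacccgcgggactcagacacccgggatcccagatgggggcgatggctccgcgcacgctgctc
H2-T22: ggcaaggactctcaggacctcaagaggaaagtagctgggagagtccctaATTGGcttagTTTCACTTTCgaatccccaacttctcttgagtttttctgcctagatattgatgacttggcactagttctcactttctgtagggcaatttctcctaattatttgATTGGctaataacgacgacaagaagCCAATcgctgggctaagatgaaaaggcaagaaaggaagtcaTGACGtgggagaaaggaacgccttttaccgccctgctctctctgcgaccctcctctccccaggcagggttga
B2m: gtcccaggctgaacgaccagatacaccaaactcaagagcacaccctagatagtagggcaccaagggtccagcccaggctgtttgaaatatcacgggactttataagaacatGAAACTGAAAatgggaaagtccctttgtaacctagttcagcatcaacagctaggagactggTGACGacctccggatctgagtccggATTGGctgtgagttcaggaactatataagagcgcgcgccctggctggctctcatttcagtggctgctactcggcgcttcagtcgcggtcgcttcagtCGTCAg
H2-Aa: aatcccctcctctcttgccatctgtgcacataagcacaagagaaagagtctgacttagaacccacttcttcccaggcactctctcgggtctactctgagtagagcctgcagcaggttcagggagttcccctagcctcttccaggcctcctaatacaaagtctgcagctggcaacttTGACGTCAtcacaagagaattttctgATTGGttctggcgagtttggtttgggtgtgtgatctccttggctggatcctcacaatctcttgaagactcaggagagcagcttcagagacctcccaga

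The palindrome-like kappa B element occurred in 10 of 32851 windows (0.0304%) and in the windows of 9 of 27025 genes, among them H2-K1, H2-D1 and H2-Q6. Its first base lay 111 bases before the start used for the H2-K1 window and 171 bases before that of H2-D1. The windows of H2-T22 and B2m held the interferon response core, which was in 3.44% of all windows, and did not hold this kappa B element. That core was in a window of 4 of 17 class I heavy chain genes, among them H2-T23, whose shared probe set was called lower. The kappa B element was in 2 of the 17 and not in the window of H2-Q4, which was also called lower. Only these letters were searched, so variant forms of either element were not counted. CCAAT was in a window of 15 of 17 class I heavy chain genes that had one and of 8 of 8 class II genes, against 37.4% of all windows. TGACG was in a window of 8 of 17 class I heavy chain genes and of 1 of 8 class II genes (H2-Aa), against 20.8% of all windows. The shorter kappa B form was in 0.11% of all windows. In H2-Aa a TGACG on one strand overlapped one on the other. These matches are descriptions of the letters and not evidence of binding.

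In the lines, signals of the classical class I heavy chains were far below the control. The main H2-K1 probe set had signals of 103 at the lowest, 372 at the median and 2080 at the highest of the 22 tumour arrays, against 5126 and 6247 on control arrays 1 and 2. For H2-D1, whose product is the other classical chain of most laboratory strains, the tumour arrays gave 288, 595 and 2061, against 4404 and 5060 on the control arrays. For both genes every tumour array lay below both control arrays, and A2B1 lay nearest to them. The line means were 484 ± 466 for H2-K1 and 683 ± 389 for H2-D1 (SD, n = 11 lines).

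The log2 difference, lines minus control on log2(signal + 32), was -3.84 (SE 0.59, limma adjusted p = 6.7e-05) for H2-K1 and -2.88 (SE 0.40, adjusted p = 2.3e-05) for H2-D1. Calls required at least a 2-fold difference and a Benjamini-Hochberg adjusted p under 0.05 over all probe sets. All 3 probe sets of H2-K1 and all 3 of H2-D1 were called lower. The further probe sets of H2-D1 gave -4.07 and -4.43, and those of H2-K1 gave -3.42 and -2.10. H2-K2, a class I sequence near H2-K1 that RefSeq annotates as a transcribed pseudogene, averaged 277 ± 203 in the lines (SD, n = 11), against 4409 and 4810 on the control arrays, a difference of -4.14 (SE 0.44, adjusted p = 1.9e-06).

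Over all class I heavy chains, 23 of 34 probe sets were called lower and 0 higher, with a median difference of -1.71. Over all 12422 probe sets, 17% were called lower and 10.2% higher, with a median of -0.11. Every line lay below both control arrays for 23 of the 34, against 28.2% of all probe sets, and above both for 1 (16.9% of all). Against each control array alone the counts were 21 lower on control 1 (13.8% of all probe sets) and 23 lower on control 2 (19.8% of all). Class I sequences are closely alike and 16 of the 34 probe sets carry the suffix with which Affymetrix marks probe sets shared by a gene family, so signals of single class I genes cannot be fully told apart.

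**Figure D1:**
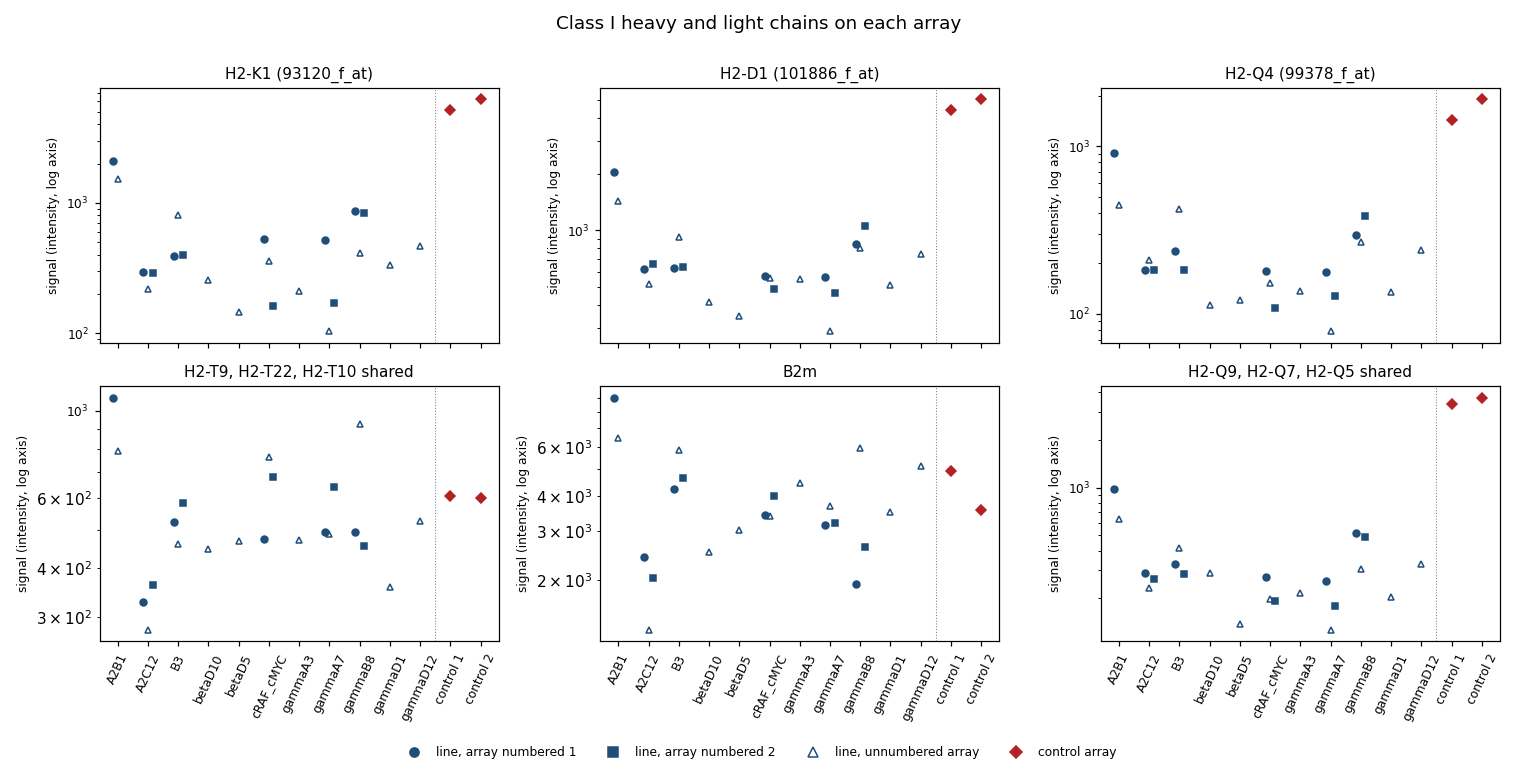
Signal (intensity, log axis) of 6 class I probe sets on each of the 22 tumour arrays, by line, and on the 2 control arrays; filled symbols are numbered arrays, open triangles unnumbered ones. The H2-K1, H2-D1, H2-Q4 and shared H2-Q9, H2-Q7 and H2-Q5 panels show all tumour arrays below both controls with A2B1 nearest, while for B2m and the probe set shared by H2-T9, H2-T22 and H2-T10 the tumour arrays lie on both sides of the controls.

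Among the other class I genes, H2-Q4, of the Q region that encodes non-classical chains, had 78.6, 183 and 910 as the lowest, median and highest tumour signal, against 1434 and 1909 on the control arrays. Its difference was -2.91 (SE 0.44, adjusted p = 5.8e-05). The probe set shared by H2-Q9, H2-Q7 and H2-Q5 gave 127, 278 and 982 on the tumour arrays, against 3363 and 3699 on the control arrays, a difference of -3.52 (SE 0.40, adjusted p = 3.9e-06). No tumour array reached a control array for either. The probe set shared by H2-T23 and H2-T-ps fell by 2.24 (SE 0.21, adjusted p = 5.4e-07), and H2-T23 encodes Qa-1, the chain that shows leader peptides of other class I chains to natural killer cells. Called lower as well were H2-Q1, H2-Q5, H2-Q10, H2-T18, H2-M2, H2-M9, H2-Bl, 1 of 2 probe sets each of H2-D4 (-3.35), H2-M3 (-1.28) and shared H2-T3 and H2-T18 (-1.78), and the shared H2-K2 and H2-Q2 probe set (-2.85). RefSeq annotates H2-Q5 and H2-Bl as transcribed pseudogenes of the C57BL/6J genome. It lists H2-D4 as a transcribed pseudogene too, at a position (1684755) far from theirs, and the annotation used does not give the strain of that sequence. H2-M3 presents formylated peptides, which are typical of bacteria and mitochondria. The 3 probe sets of H2-M10.1 disagreed, with 1 called lower (-1.65) and the others at 0.03 and 0.44.

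Of the 11 class I heavy chain probe sets that were not called, 9 had signals under 60 on both control arrays, where a fall can hardly be measured. The remaining ones were the pair of probe sets shared by H2-T9, H2-T22 and H2-T10. T22 and T10 are non-classical chains known as ligands of gamma delta T cells, and H2-T10 is annotated as a transcribed pseudogene of the C57BL/6J genome. The brighter of the pair had 279, 491 and 1079 as the lowest, median and highest tumour signal, against 609 and 601 on the control arrays. Here 16 tumour arrays lay below both control arrays and 6 above both. The difference was -0.24 (SE 0.26, adjusted p = 0.47), and it was 0.30 when arrays were centred on their medians. The other had 186, 330 and 616, against 312 and 298 on the control arrays, a difference of 0.13 (SE 0.24, adjusted p = 0.68). H2-T24 lay above both control arrays in all lines, averaging 31.1 ± 11.2 in the lines (SD, n = 11) against 5.62 and 7.88 on the control arrays. Its difference of 0.67 (SE 0.18, adjusted p = 0.0067) was under 2-fold on this scale. H2-T24 was called higher with arrays centred on their medians (1.20, adjusted p = 6.8e-05) and with an offset of 1 in place of 32 (1.87, adjusted p = 0.0036).

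For B2m, the class I light chain, the tumour arrays lay on both sides of the control arrays. It had 1332 at the lowest, 3469 at the median and 9025 at the highest of the tumour arrays, against 4940 and 3576 on control arrays 1 and 2. Of the 22 tumour arrays, 12 lay below both controls, 5 between them and 5 above both. Line A2B1 had the highest signals (9025 and 6442) and A2C12 the lowest (2424, 2046 and 1332). The difference was -0.19 (SE 0.36, adjusted p = 0.68), and its sign turned without control 1 (0.04) and with arrays centred on their medians (0.34).

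Of the 10 probe sets of class I peptide loading genes, 4 were called lower (17% of all probe sets) and 0 higher (10.2% of all), with a median of -0.85. Every line lay below both control arrays for 5 of the 10, against 28.2% of all probe sets. TAP is the transporter that brings peptides into the endoplasmic reticulum. Tap2, its second chain, had 3.54, 22.3 and 121 as the lowest, median and highest tumour signal, against 137 and 274 on the control arrays. All tumour arrays lay below both. The difference for Tap2 was -2.03 (SE 0.36, adjusted p = 0.00023). Tap1 had 28.6, 129 and 291, against 205 and 391.6 on the control arrays, with 20 of 22 tumour arrays below both and the A2B1 arrays, at 291 and 227, between them. Its difference of -1.01 (SE 0.36, adjusted p = 0.029) was just past the 2-fold threshold. It was not called with quantile normalization (-0.82), centred arrays (-0.47), an offset of 100 (-0.76) or a floor of 32 (-1.22, adjusted p = 0.066). Without control 2 it was -0.59, not called, and without lines cRAF_cMYC and gammaA7 it was -0.92 (adjusted p = 0.055), also not called. The other Tap1 probe set (-0.74) was not called either.

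Tapbp, or tapasin, bridges TAP and the class I chain. Its 3 probe sets gave -1.66 (SE 0.20, adjusted p = 5.2e-06, called), -0.92 (adjusted p = 0.031, under 2-fold) and -0.56 (adjusted p = 0.16). The brightest had 367, 560 and 1736 on the tumour arrays, against 1039 and 1541 on the control arrays, with 18 of 22 tumour arrays below both, 3 between them and the numbered A2B1 array above both. Canx, the chaperone calnexin, that holds new heavy chains, was called lower for 1 probe set (-1.73, SE 0.22, adjusted p = 8.8e-06). That probe set had 42.8, 79.4 and 149 on the tumour arrays, against 359 and 332 on the control arrays. The other Canx probe set (-0.79, adjusted p = 0.0079) was under 2-fold.

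Pdia3, the disulfide isomerase ERp57 of the loading complex, lay above both control arrays in all lines. It had 1185, 1907 and 2870 as the lowest, median and highest tumour signal, against 1204 and 1063 on the control arrays. Of the tumour arrays 21 lay above both control arrays and 1 between them. Its difference of 0.69 (SE 0.16, adjusted p = 0.0024) was under 2-fold, and it reached 1.22 with arrays centred on their medians and 1.01 on numbered arrays alone. Calr, the chaperone calreticulin, had signals of 1.13 to 24.4 on the tumour arrays, against 18.5 and 10.7 on the control arrays, near the bottom of the scale on every array.

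**Figure D2:**
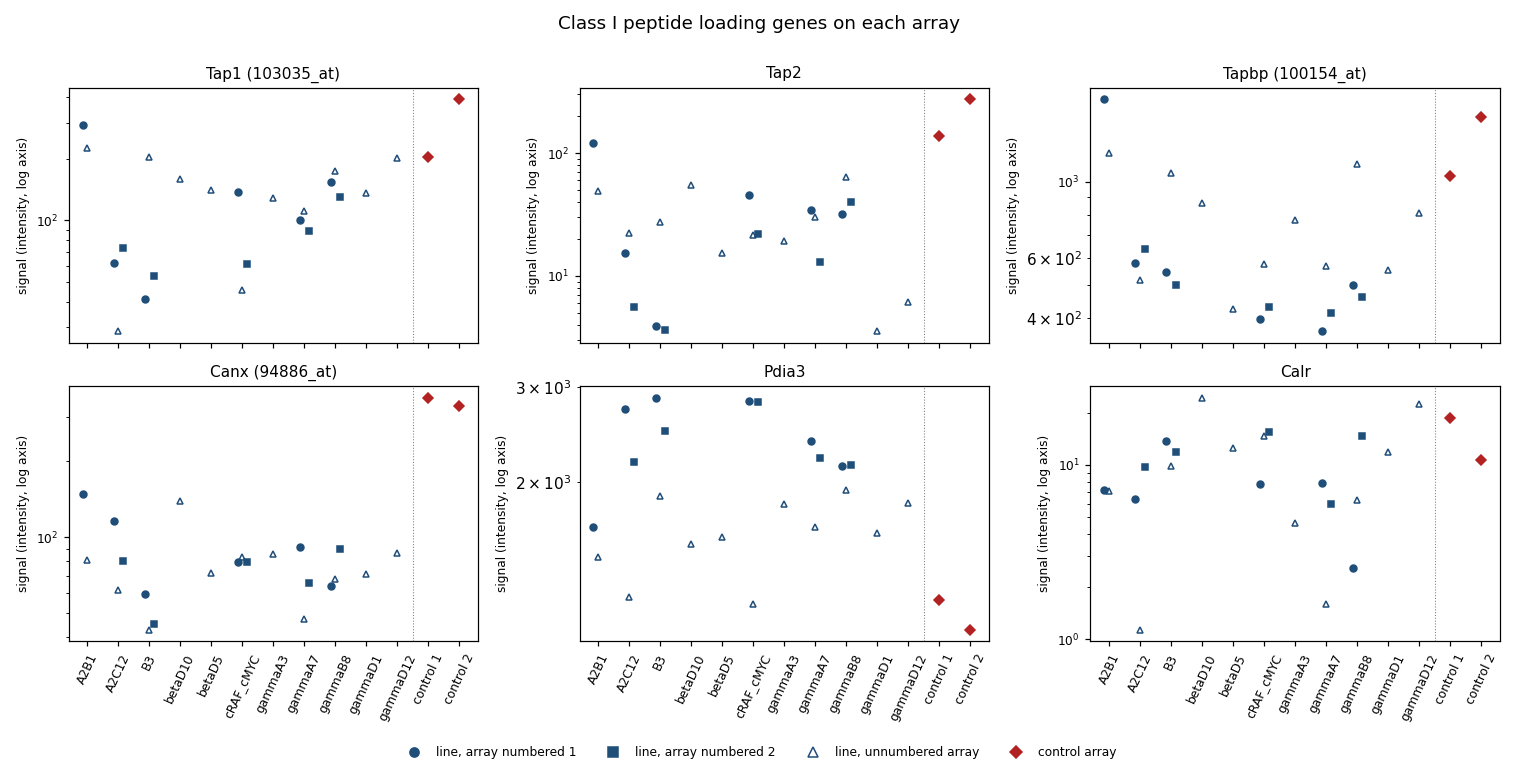
Signal (intensity, log axis) of 6 class I loading genes on each of the 22 tumour arrays, by line, and on the 2 control arrays; symbols are as in the plot of heavy and light chains. Tap2 and Canx lie below both controls on all tumour arrays, Tap1 of A2B1 reaches the control range, as do 4 tumour arrays for Tapbp, and Pdia3 lies above both controls on 21 of 22 tumour arrays.

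Class II chains had low signals in all lines, with 78.7 as the highest signal of any class II chain on any tumour array. That was H2-Eb1 on array 2 of gammaA7, where the median of all probe sets was 63.8. The control arrays were unlike each other. H2-Aa, the alpha chain of the A molecule, had 2.96, 6.82 and 18.9 as the lowest, median and highest tumour signal, against 11.5 on control 1 and 4889 on control 2. H2-Ab1, its beta chain, had 4.67, 8.83 and 30.8, against 61.8 on control 1 and 2676 on control 2. H2-Eb1, the beta chain of the E molecule, had 8.37, 26.2 and 78.7, against 26.7 on control 1 and 3565 on control 2. For H2-Aa and H2-Eb1 control 1 lay within the range of the tumour arrays, and for H2-Ab1 above it. H2-Ea, which the RefSeq annotation of the C57BL/6J genome lists as a transcribed pseudogene, had 1.93 to 15.3 on the tumour arrays, against 6.82 on control 1 and 2444 on control 2.

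The class II loading genes were likewise higher on control 2 than on control 1, but several also stood clear of the lines on control 1. Cd74, the invariant chain, had 30.4, 53.5 and 94.1 on the tumour arrays, against 311 on control 1 and 7700 on control 2. H2-DMa, a chain of the editor that exchanges peptides, had 32.4, 80.8 and 163, against 667 and 2142. H2-DMb1, its partner, had 11.9, 48.3 and 138, against 190 and 1692. For Cd74, H2-DMa and H2-DMb1 no tumour array reached either control array. Ciita had 7.54, 27.4 and 55.2 on the tumour arrays, against 80.3 on control 1 and 161 on control 2, again with no overlap.

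With both control arrays, 13 of 15 class II probe sets were called lower (17% of all probe sets) and 0 higher (10.2% of all), with a median of -2.44. Every line lay below both controls for 8 of the 15, against 28.2% of all probe sets. The differences were -3.55 (SE 0.97, adjusted p = 0.0060) for H2-Aa, -3.50 (SE 0.70, adjusted p = 0.00066) for H2-Ab1 and -2.93 (SE 0.86, adjusted p = 0.0096) for H2-Eb1. Cd74 gave -4.20 (SE 0.67, adjusted p = 8.6e-05), H2-DMa -3.38 (SE 0.34, adjusted p = 1.1e-06) and H2-DMb1 -3.02 (SE 0.51, adjusted p = 0.00015). H2-Ea (-3.06), H2-DMb2 (-1.39), the shared H2-DMb2 and H2-DMb1 probe set (-1.71), H2-Oa (-1.47) and H2-Ob (-1.27), chains that restrain H2-DM, the second H2-DMa probe set (-2.44) and Ciita (-1.28, SE 0.23, adjusted p = 0.00022) were also called. Ciita was no longer called without control 2 (-0.89), with quantile normalization (-0.82), with centred arrays (-0.74) or with an offset of 100 (-0.75). H2-Eb2 (0.00) and H2-Pa (-0.26), an annotated pseudogene, were not, and both were under 26 on each control array.

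How many class II calls were made depended on which control array was used. Against control 2 alone 13 of 15 were called lower (19.8% of all probe sets) with a median of -3.20. Against control 1 alone 5 were called lower (13.8% of all) with a median of -0.72, and these were H2-Ab1 (-1.08), Cd74 (-1.95), both H2-DMa probe sets (-2.56 and -1.68) and H2-DMb1 (-1.54). Against control 1 alone H2-Aa gave -0.14 (adjusted p = 0.31), H2-Ea -0.06 (adjusted p = 0.70), and the sign turned for H2-Eb1 (0.04) and H2-Ob (0.09). No member was called higher against either control array alone, where 8.71% (control 1) and 11.4% (control 2) of all probe sets were.

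Set against control 1, control 2 was at least 2-fold higher for 12 of 15 class II probe sets, 2 of 34 class I heavy chain probe sets and 1 of 10 loading probe sets, against 6.40% of all probe sets. It was at least 2-fold lower for 0 of the 62 members, against 4.31% of all. These are single arrays, so no test was made. The log2 difference, control 2 minus control 1, was 6.82 for H2-Aa, 4.85 for H2-Ab1, 5.94 for H2-Eb1, 4.49 for Cd74 and 0.78 for Ciita, against 0.28 for H2-K1 and 0.20 for H2-D1.

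**Figure D3:**
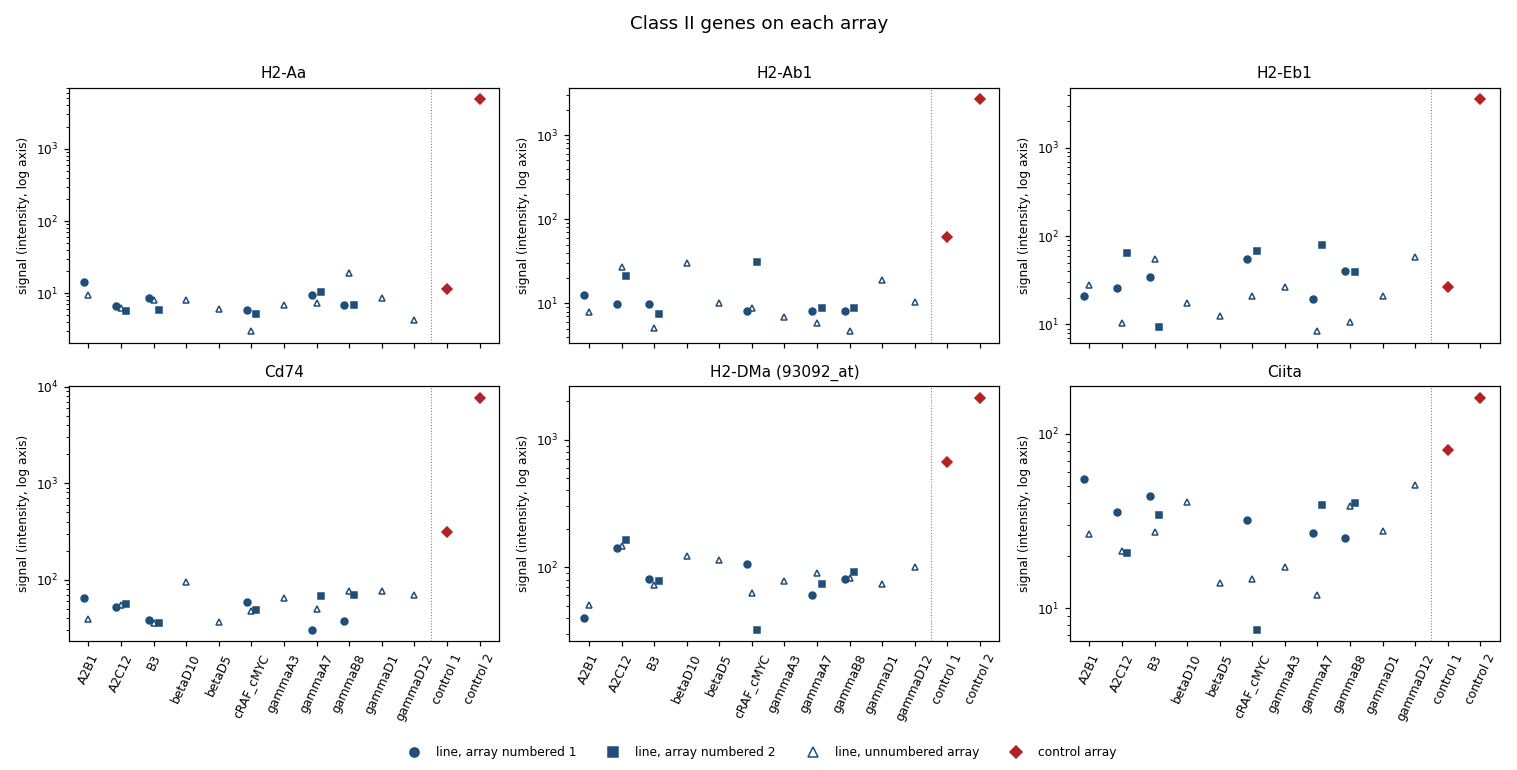
Signal (intensity, log axis) of 6 class II genes on each of the 22 tumour arrays, by line, and on the 2 control arrays; symbols are as in the plot of heavy and light chains. Control 2 lies above all tumour arrays in every panel, whereas control 1 lies within the tumour arrays for H2-Aa and H2-Eb1 and above them for H2-Ab1, Cd74, H2-DMa and Ciita.

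**Figure D4:**
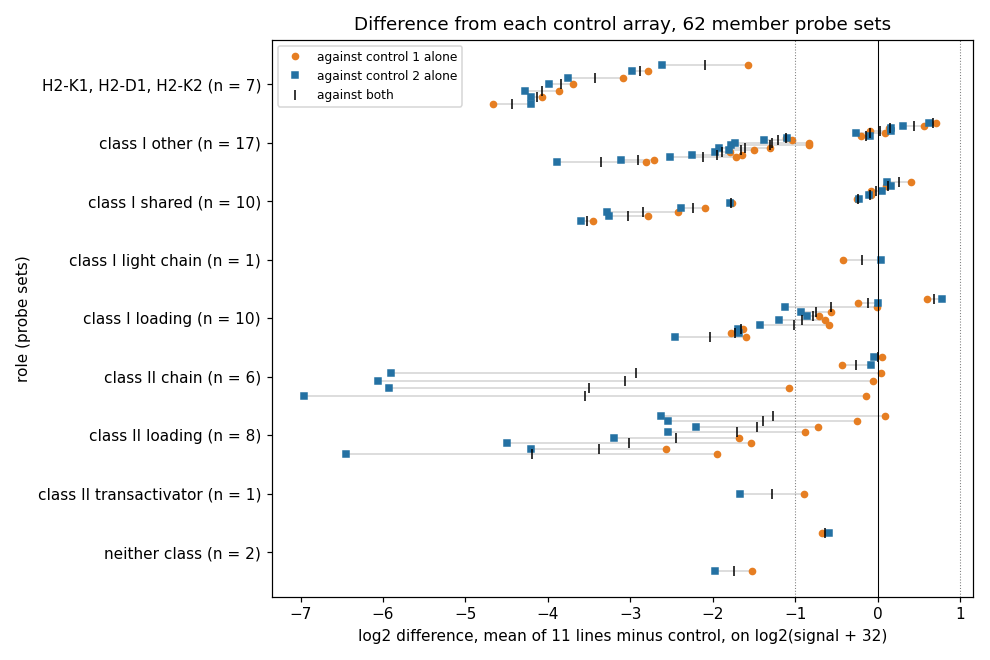
Log2 difference, mean of 11 lines minus control on log2(signal + 32), of all 62 member probe sets by role, against control 1 alone (circles), control 2 alone (squares) and both (ticks); dotted lines mark 2-fold. The circles and squares of the H2-K1, H2-D1 and H2-K2 probe sets lie at -1.58 or lower, while those of the class II chains spread up to 6.82 apart; the sign for B2m differs between the controls.

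Markers of other cells also differed between the control arrays, and the cell types below are given by the summed signal of fixed marker lists. The 8 measured B cell markers summed to 92.1 to 365 on the tumour arrays, against 455 on control 1 and 5038 on control 2, where 6 of them were at least 2-fold higher. The immunoglobulin heavy chain Ighm had 132 on control 1 and 2617 on control 2. For Cd79b, a B cell receptor chain, the signals were 12.2 and 532. The 9 alveolar type II markers summed to 100.0 to 219 on the tumour arrays, against 1798 on control 1 and 31190 on control 2, with 7 at least 2-fold higher on control 2. Surfactant protein C (Sftpc) had 787 on control 1 and 11196 on control 2. The 12 macrophage markers summed to 582 to 2075 on the tumour arrays, against 40442 on control 1 and 21793 on control 2, with 5 at least 2-fold lower on control 2. The 7 dendritic cell markers summed to 238 to 479 on the tumour arrays, against 1676 on control 1 and 2136 on control 2, and the 7 T cell markers to 37.0 to 1391, against 96.7 and 748, with 6 of the 7 T cell markers at least 2-fold higher on control 2. Class II signals thus moved between the control arrays together with B cell, T cell and type II cell markers, and the part of each in the class II results was not tested. Fewer cells of a type and less RNA per cell cannot be told apart in such samples.

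Against both controls together, 7 of 8 B cell markers, 8 of 9 type II markers, 11 of 12 macrophage markers, 5 of 7 dendritic cell markers and 1 of 7 T cell markers (Cd3e) were called lower in the lines. Of all probe sets 17% were called lower. These calls use both control arrays, which differed in these markers. On control 1 the B cell markers summed to 455, against 365 on the highest tumour array and 5038 on control 2. The T cell sum on control 1 (96.7) lay within the tumour range (37.0 to 1391). Leading falls were Chil3 (-7.36) and Lyz2 (-7.33) of macrophages, Sftpc (-5.81) and Napsa (-5.07) of type II cells, Itgax (-3.99) and Cd83 (-1.60) of dendritic cells, and Ighm (-3.39) and Cd22 (-2.36) of B cells. The lines are thus compared with preparations in which RNAs typical of immune cells were measured, and the part of those cells in the class I results was not tested.

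The lines were also compared with each other. By an F-test over the 11 lines, 4 of 62 members passed an adjusted p of 0.05, against 1.81% of all probe sets, and all 4 read class I heavy chains. They were the brightest H2-D1 probe set (limma F-test adjusted p = 0.0097), H2-Q4 (adjusted p = 0.040), the probe set shared by H2-Q9, H2-Q7 and H2-Q5 (adjusted p = 0.016) and the probe set shared by 10 symbols including H2-K1, H2-D1 and H2-T23 (adjusted p = 0.0050, and -3.02 lines minus control). The other H2-D1 probe sets did not pass (limma F-test adjusted p = 0.11 and 0.060). At an unadjusted p under 0.05 there were 24 members, against 16.6% of all probe sets. Counts at the adjusted p depended on single arrays. Without the unnumbered A2B1 array 6 members passed it, against 5.96% of all probe sets, and without A2C12 array 2 there were 3, against 0.555%. On the numbered arrays of 5 lines 5 members passed, against 11.6% of all probe sets, so there the members' share was not above that of all probe sets. H2-D1 averaged 1748 in A2B1, 904 in gammaB8, 744 in gammaD12 and 729 in B3, and between 349 (betaD5) and 599 (A2C12) in the other lines. H2-Q4 averaged 677 in A2B1, 315 in gammaB8 and 281 in B3, down to 113 in betaD10. The probe set of H2-Q9, H2-Q7 and H2-Q5 averaged 806 in A2B1 and 437 in gammaB8, down to 138 in betaD5. H2-K1 had a like order, with 1804 in A2B1, 703 in gammaB8 and 145 in betaD5 (adjusted p = 0.075).

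A2B1 was the highest line for 17 of the 23 class I heavy chain probe sets called lower, and betaD5 the lowest for 10. The numbered A2B1 array was the highest of all 22 tumour arrays for 21 of the 23, and it exceeded the unnumbered A2B1 array for 23 of 23. Its median signal over all probe sets was also the highest of the tumour arrays (75.5, against 55.5 on the unnumbered A2B1 array). How often this line or array ranked highest over all probe sets was not counted, so these ranks may not be particular to class I. The unnumbered A2B1 array exceeded every array of the other lines for 9 of the 23. H2-K1 had 2080 and 1528 on these arrays, and the highest array of another line had 859 (gammaB8). Without A2B1 the F-test called 0 members, against 1.54% of all probe sets. Without its numbered array alone it called 1, against 1.41% of all, so both counts were near the share of all probe sets. Without cRAF_cMYC and gammaA7 it again called 4, against 1.88% of all probe sets, now with H2-K1 (limma F-test adjusted p = 0.015) and without H2-Q4 (adjusted p = 0.088). H2-D1 (adjusted p = 0.017), the probe set of H2-Q9, H2-Q7 and H2-Q5 (adjusted p = 0.039) and the probe set shared by 10 symbols (adjusted p = 0.021) were called in both. Array 1 of cRAF_cMYC and of gammaA7 had H2-K1 signals of 527 and 515, array 2 of these lines 161 and 170, and the unnumbered arrays 356 and 103.

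In contrasts of each line with the control, which all share the 2 control arrays, 21 to 23 class I heavy chain probe sets, 3 to 7 loading probe sets and 7 to 13 class II probe sets were called lower. The class I count was 21 in A2B1 (13.6% of all probe sets lower), betaD10 (14.1%), gammaB8 (16.2%) and gammaD12 (14.3%), 22 in betaD5 (16.4%), and 23 in A2C12 (18.2%), B3 (18.7%), cRAF_cMYC (16.9%), gammaA3 (16.8%), gammaA7 (16.7%) and gammaD1 (16.2%). Class II counts were 13 in A2C12, B3 and gammaB8, with 3 arrays each, and 7 in betaD10 and gammaD12, with 1 array each. The class II medians of these lines were close, at -2.47, -2.53 and -2.40 against -2.38 and -2.34. Fewer arrays give a larger SE, so the class II count also depends on the number of arrays. The median class I difference was weakest in A2B1 (-1.25) and strongest in betaD5 (-1.90). Called higher were Pdia3 in B3 (10.7% of all probe sets), and H2-T24 in betaD10 (9.41%) and gammaA3 (9.93%). No member was called higher in A2B1 (8.26%), A2C12 (11.2%), betaD5 (10.2%), cRAF_cMYC (10.4%), gammaA7 (10.3%), gammaB8 (10.4%), gammaD1 (9.69%) or gammaD12 (9.24%).

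In 6 lines an unnumbered array stood beside numbered ones. Between these kinds of arrays, with the line as a block over 17 arrays, 0 members were called, against 0.137% of all probe sets lower and 0.225% higher on unnumbered arrays. Pdia3 was 0.60 lower on unnumbered arrays (log2 difference -0.60, limma adjusted p = 0.014), under 2-fold. In gammaB8, B2m had 5971 on the unnumbered array, against 1940 and 2640 on the numbered ones. Without cRAF_cMYC and gammaA7 there were also 0 members called. With numbered arrays alone, 23 class I heavy chain, 3 loading and 8 class II probe sets were called lower against the control, beside 1787 of all 12422 probe sets. With 1 array per line, unnumbered where there was one, the counts were 23, 3 and 13, beside 2218 of all probe sets.

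Genes that act beside the members were called for some of each list, and the counts stand beside the 17% of all probe sets called lower. Of 10 measured immunoproteasome and class I accessory genes, 4 were called lower and 0 higher, with a median of 0.06. Psmb8, an immunoproteasome subunit that cuts peptides for class I, averaged 30.5 ± 52.1 in the lines (SD, n = 11), against 546 and 799 on the control arrays, a difference of -3.71 (SE 0.46, adjusted p = 9.6e-06). Psmb9, another such subunit, averaged 11.7 ± 19.5 in the lines, against 174 and 350 on the control arrays, a difference of -2.77 (SE 0.31, adjusted p = 3.0e-06). Psmb10, the subunit that completes them, gave -0.01 (adjusted p = 0.97). A2B1 was the highest line for Psmb8 (186), Psmb9 (70.0) and Psmb10 (865). Mr1 and Cd1d1, class I-like molecules that present metabolites and lipids, were the other called genes.

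Of 13 genes of the interferon gamma pathway and of class I and class II transcription, 3 were called lower and 0 higher, with a median of -0.45, and the share called lower was close to that of all probe sets. Irf8, a factor of myeloid and B cells, gave -3.81 (SE 0.19, adjusted p = 4.1e-10). Ifngr1, a chain of the interferon gamma receptor, averaged 118 ± 17.97 in the lines (SD, n = 11), against 362 and 322 on the control arrays, a difference of -1.34 (SE 0.17, adjusted p = 8.6e-06). Irf1, a factor that switches on class I genes after interferon, gave -1.04 (SE 0.30, adjusted p = 0.0087) with 217 ± 72.3 in the lines (SD, n = 11), against 405 and 492 on the control arrays. Of 6 proteases and reductases that prepare class II peptides, 4 were called lower and 0 higher. Ctss, the protease that trims the invariant chain, averaged 12.8 ± 4.79 in the lines, against 6865 and 5571 on the control arrays (-7.13, SE 0.16, adjusted p = 3.8e-14), and Lgmn, a lysosomal endopeptidase, gave -2.20 (SE 0.32, adjusted p = 4.3e-05).

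H2-Ke6 was called lower for 1 of its 2 probe sets, which averaged 61.3 ± 21.8 in the lines (SD, n = 11), against 227 and 322 on the control arrays, a difference of -1.75 (SE 0.22, adjusted p = 1.1e-05). The other gave -0.63 (SE 0.15, adjusted p = 0.0021), under 2-fold. The median signal of an array was 53.2 to 75.5 among tumour arrays, against 93.8 for control 1 and 108 for control 2. Centring the arrays moved the median difference of all probe sets by 0.54, to 0.42, and the split of calls to 1096 lower and 2495 higher, against 2106 lower and 1264 higher as reported. Relative to the median of all probe sets, the class I heavy chain median was -1.60 and the class II median -2.33, which centring cannot change. With quantile normalization these were -1.49 and -2.25.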

How the data were processed

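The authors deposited 1 linear intensity per probe set and array, from GCOS per the submitters' processing notes. The sources used here state no version, background correction or detection call. Trimmed means (2% removed at each end) of 248 to 249 on all arrays show scaling array by array. Affymetrix's own 66 control probe sets were not used. Values were tested as log2(signal + 32), which compresses differences at low signals, without a filter. In limma 3.58.1 (R 4.3.3, eBayes with an intensity trend) the means of 11 lines were fitted against 2 control arrays (11 residual degrees of freedom). A model of 12 groups over 24 arrays (12 residual degrees of freedom) gave the F-test among lines and each line's contrast; lines with 1 array are assumed to vary like the others. The fit assumes equal spread in lines and control, so its SE understates the error where the control arrays are far apart. Adjusted p-values are Benjamini-Hochberg over 12422 probe sets. Of those, 10833 had 1 symbol, 396 several and 1193 none.

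A gene with several probe sets is named through the brightest, and probe sets that go another way are named too; from other lists the 2 called genes with the largest difference are named, and Cd79b, Irf1, Psmb10, Mr1 and Cd1d1 were chosen after their values were seen. Members and lists were chosen with earlier results of these data known. Arrays numbered 1 and 2 of 5 lines did not deviate together beyond the pair cRAF_cMYC and gammaA7 (10 pairs of lines, r -0.01 to 0.70, the highest in that pair, median 0.00), so numbers were not used to pair arrays. Leaving out these 2 lines was added after seeing the data. The number of arrays limits the precision. The fits were tested on simulated data. Promoter windows are RefSeq's (GRCm38.p6), found for 32 of 49 symbols.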

Additional observations from a re-analysis of the deposited data

Results flagged for a closer look

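Differences among the 11 lines passed the limma F-test, a test of the difference itself, for 4 class I heavy chain probe sets. The adjusted p was 0.00965 for the brightest H2-D1 probe set, 0.04 for H2-Q4, 0.0163 for the probe set shared by H2-Q9, H2-Q7 and H2-Q5 and 0.00503 for the probe set shared by 10 symbols including H2-K1 and H2-D1. The other probe sets of H2-D1 alone did not pass. A2B1 was the highest line for each of the 4 that passed, with 1748 in A2B1 against 904 in gammaB8, the next line, for H2-D1. Without A2B1 0 members passed (1.54% of all probe sets did), and without its numbered array 1 passed (1.41% of all did). Without cRAF_cMYC and gammaA7, whose equally numbered arrays were more alike across the lines than within them, 4 passed (1.88% of all probe sets did), with H2-K1 in place of H2-Q4.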

How the results depend on the processing

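Leaving out each line, or each array of a line with several, left 23 class I heavy chain probe sets and 13 class II probe sets called lower in all 28 settings, and 3 to 5 loading probe sets. The class I heavy chain count was 20 with quantile normalization, 19 with centred arrays, 19 with an offset of 100, 21 with the filter and 21 without control 2. Of all probe sets, 1096 were called lower with centred arrays, 1255 with an offset of 100 and 1787 with numbered arrays alone, against 2106 as reported. Members called higher numbered 2 with centred arrays or by adjusted p alone, and 1 with an offset of 1 or numbered arrays alone, against 0. Among all probe sets, 2495 were called higher with centred arrays, 2357 by adjusted p alone and 1144 with numbered arrays alone, against 1264 as reported. The calls of Ciita and Tap1 that were lost under a scaling, offset or floor are given with these genes. H2-DMb2, H2-Oa and H2-Ob were also no longer called with centred arrays (-0.86, -0.93 and -0.74) or with an offset of 100 (-0.86, -0.85 and -0.76). Class II probe sets called lower numbered 12 with quantile normalization, 9 with centred arrays, 8 with the larger offset of 100 and 8 with numbered arrays alone. They numbered 5 with the filter on low signals and 5 without control 2, against 13 as reported. The filter drops probe sets before testing, and every class II probe set that it kept was called. Its smaller class I and class II counts thus reflect probe sets not tested, not calls lost. Loading probe sets called lower numbered 7 by adjusted p alone, against 4, while those of all probe sets rose to 4258, against 2106. The medians of all probe sets turned to 0.052 with quantile normalization and 0.42 with centred arrays. With centred arrays the probe set shared by H2-T9, H2-T22 and H2-T10 turned to 0.30 and B2m to 0.34, and without 1 control array B2m ranged between -0.43 (without control 2) and 0.037 (without control 1), H2-Eb1 between -5.90 (without control 1) and 0.037 (without control 2), and H2-Ob between -2.63 (without control 1) and 0.091 (without control 2). Counts of probe sets at least 2-fold higher on control 2 than on control 1 were 4 for class I heavy chains with quantile normalization, an offset of 1 or a floor of 32, and 0 with centred arrays or an offset of 100, against 2. For loading genes they were 0 with centred arrays or an offset of 100 and 2 with the floor, against 1, and for class II 5 with the filter, against 12. The filter's count again rests on fewer probe sets. Tap1 was no longer called in 9 of the 28 settings that leave out a line or an array (-1.10 to -0.92). The 4 members passing the F-test among lines became 14 over the 6 lines with several arrays (794 of all probe sets, against 225 as reported), and 0 to 8 when 1 line or array was left out, with 69 to 740 of all probe sets (0 without A2B1, an alternative chosen after seeing the data, 1 without A2B1 replicate 1, and 8 without the unnumbered gammaB8 array). Leaving out cRAF_cMYC and gammaA7, also chosen after seeing the data, kept the counts of members called lower at 23 class I heavy chain and 13 class II probe sets, with 3 loading probe sets. Between unnumbered and numbered arrays 1 member was called with an offset of 1, against 0. The cause of these changes, the reversals included, was not tested. Signals near the bottom of the scale limit what falls could be measured.

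On the numbered arrays of 5 lines, 5 members passed the F-test with the replicate block and 5 without it, while over all probe sets the block gave 1400 and the fit without it 1447. The numbers did not pair the arrays, and the control arrays carry none, so no paired fit against the control was possible.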
